A study of Mus musculus with 12 samples.

Results

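The genes described here are 10 markers of hepatic stellate cells and pericytes: Lrat, Cygb, Reln, Colec10, Pdgfrb, Ednra, Ngfr, Rgs5, Abcc9 and Des. They were picked by symbol from the 52636 genes of the deposited table, with no measured value in the rule, and each symbol named 1 gene. The list was, however, chosen with earlier results of these data known. RNA sequencing was done on polyA RNA of liver cells from 6 mice with steatotic livers, 3 of them wild type (WT) and 3 Ptprk knockouts (KO). Ptprk encodes a receptor-type tyrosine phosphatase. The cell suspension of each liver was separated by lipid content on a Percoll density gradient with differential centrifugation, steps meant to leave dead hepatocytes and non-parenchymal cells behind. Both fractions of every mouse were sequenced, which makes 12 libraries in 4 groups of 3, low-fat and high-fat in either genotype. Every group, WT included, comes from steatotic liver, and there is no group from lean liver. The labels used here give no strain, age, sex, diet or design of the knockout allele.

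Hepatic stellate cells are the pericytes of the liver sinusoid. They lie between the sinusoidal endothelium and the hepatocytes, store vitamin A as retinyl esters in lipid droplets of their own, and wrap the sinusoid with contractile processes. In fibrosis they turn into collagen-secreting, myofibroblast-like cells.

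The libraries were those of hepatocytes by their markers. The summed level of 12 hepatocyte markers was between 635802 and 728970 reads per 20 M in all 12 libraries. This deposited unit is the read count of a gene scaled to 20 M (mega) reads per library. The 10 stellate and pericyte markers together took between 149 and 3095 reads per 20 M, which is 0.000745% to 0.0155% of a library. Ptprk, the targeted gene, stood at 2788 ± 83.7 (WT) and 1271 ± 135 (KO) in low-fat libraries and at 2407 ± 209 (WT) and 1200 ± 19.3 (KO) in high-fat ones (SD over 3 mice). The estimated depth was 15.1 to 25 M reads, so that 3 reads correspond to between 2.40 and 3.98 reads per 20 M. With the rounding up of the deposited values, 6 of the 120 values of the members were at or under 3 reads, and such floors cover counting error only. All 6 were in low-fat libraries: Cygb, Ednra, Des and Ngfr in KO replicate 1, Des in KO replicate 2 and Cygb in WT replicate 2. The low-fat library of KO replicate 1 stood apart among the low-fat ones: it had the lowest value for 10 of 10 members, ties counted. The high-fat libraries of WT mouse 1 and KO mouse 1 stood apart in summed Kupffer cell markers, with 12320 and 10549 reads per 20 M against 2224 to 2527 in the other 4 high-fat libraries.

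All 10 markers were higher in the high-fat than in the low-fat library of every mouse, as were 9.74% of all genes tested. Fold changes over the 6 mice ran from 3.84 for Ngfr to 6.28 for Lrat, with a median log2 fold change of 2.44, against -0.04 over all 16563 genes tested. The log2 values are of the deposited value plus 2 after rescaling between libraries, a scale on which changes of low levels come out too small. limma, with a term for each mouse, called 10 of 10 members at an adjusted p under 0.05 (0.0027 to 0.0089), where 6.65% of all genes tested were called higher. The members also showed no overlap between the 6 low-fat and the 6 high-fat libraries, 10 of 10 against 4.44% of all genes, and 1.17% of all genes had a log2 fold change at least as large as that of Ngfr. An exact sign-flip test over the 6 mice gave p = 0.03125 for each member, the smallest value that 6 pairs allow. In bulk libraries, more stellate cells in the high-fat fraction and more RNA of these genes per stellate cell there cannot be told apart. The filter on low values asked for at least 10 reads per 20 M in at least 3 libraries, and Cygb, Ednra and Des passed it through their high-fat libraries alone. These 3 therefore had to be higher there to be counted. The other 7 members also met the filter in their low-fat libraries, and 7 of 7 were called.

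**Figure D1:**
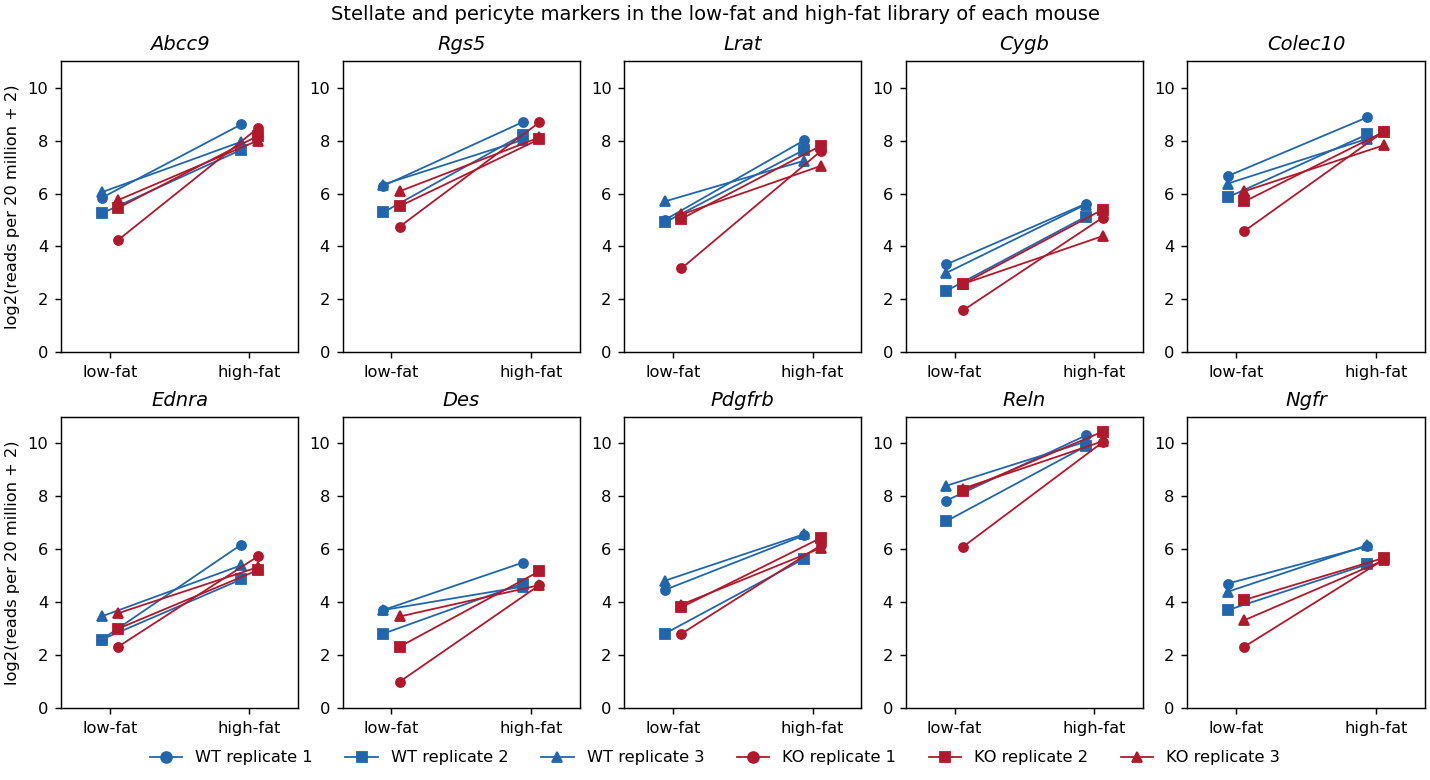
Level of each marker by fat fraction, as log2(reads per 20 M + 2), 1 panel per gene and 1 line per mouse, WT in blue and KO in red. Every line rises from left to right, and the red circle of KO mouse 1 is at the bottom of the low-fat column, alone or tied, in all 10 panels.

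Because these genes moved together, the sequence just before their annotated start was examined in the RefSeq promoter table (GRCm38.p6), which held 7 of the 10 genes. The windows are 250 bases long, end at the base before the start, and were searched on both strands. The 4 shown are Abcc9, Lrat and Des, whose windows held the muscle-type E-box or TEAD letters, and Reln, the most abundant member in reads, whose window held 6 GC boxes. They lie at chr6:142702275-142702524 on the minus strand (Abcc9), chr3:82903975-82904224 on the minus strand (Lrat), chr1:75360042-75360291 on the plus strand (Des) and chr5:22344706-22344955 on the minus strand (Reln). Capitals mark a match to CAGCTG (E-box), GGAATG (TEAD) or GGGCGG (GC box) or to its reverse complement, and no matches of different motifs overlapped in these 4 windows.
Abcc9: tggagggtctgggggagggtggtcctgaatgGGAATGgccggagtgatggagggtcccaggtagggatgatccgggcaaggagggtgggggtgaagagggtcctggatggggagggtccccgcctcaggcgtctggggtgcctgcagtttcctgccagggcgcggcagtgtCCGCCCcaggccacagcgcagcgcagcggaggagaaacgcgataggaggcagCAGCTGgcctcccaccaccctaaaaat
Lrat: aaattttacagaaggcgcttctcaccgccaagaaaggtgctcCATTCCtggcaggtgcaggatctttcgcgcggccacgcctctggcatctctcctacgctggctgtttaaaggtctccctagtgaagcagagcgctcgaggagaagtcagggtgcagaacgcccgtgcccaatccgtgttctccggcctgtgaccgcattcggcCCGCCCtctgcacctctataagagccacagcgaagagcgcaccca
Des: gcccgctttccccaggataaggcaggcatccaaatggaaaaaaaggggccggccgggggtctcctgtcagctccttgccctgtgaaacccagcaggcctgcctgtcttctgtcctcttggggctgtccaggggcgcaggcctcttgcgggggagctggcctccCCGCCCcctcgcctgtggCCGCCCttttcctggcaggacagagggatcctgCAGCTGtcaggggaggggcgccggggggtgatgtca
Reln: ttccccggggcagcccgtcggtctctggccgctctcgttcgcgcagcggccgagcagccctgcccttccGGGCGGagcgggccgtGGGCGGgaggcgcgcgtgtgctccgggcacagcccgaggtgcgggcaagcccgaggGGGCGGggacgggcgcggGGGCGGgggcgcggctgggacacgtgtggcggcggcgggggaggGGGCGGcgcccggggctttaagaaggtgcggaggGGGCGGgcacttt
The E-box letters CAGCTG were present in 3 of the 7 windows (Des, Abcc9 and Ngfr) and in 12.8% of 27025 promoter windows of the same length. GGAATG was present in 2 of 7 (Lrat and Abcc9), against 12.6% of all windows, and GGGCGG in 5 of 7, against 32.9%. TGANTCA (AP-1), AGGTCA (a nuclear receptor motif), TATAAA and the SRF CArG box were present in none of the 7, and in 6.87%, 13.8%, 13% and 1.4% of all windows. The windows of Rgs5 and Ednra, not shown, held none of the motifs searched, and that of Ngfr, with E-box letters and GC boxes, is not shown either. Matches of this kind describe letters in a window and are not evidence of binding.

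The first group of members belongs to vitamin A storage and to the identity of quiescent stellate cells. Lrat (ENSMUSG00000028003) encodes lecithin retinol acyltransferase, which makes the retinyl esters that stellate cells store. Its level was 30, 28 and 50 reads per 20 M in WT low-fat replicates 1 to 3 and 256, 199 and 149 in the WT high-fat replicates. In KO mice it was 7, 31 and 35 in the low-fat and 193, 222 and 130 in the high-fat replicates. The lowest high-fat library was thus above the highest low-fat library, and the low-fat library of KO mouse 1 was the lowest of all. Over the 6 mice Lrat rose 6.28-fold (log2 fold change 2.65, SE 0.30, limma adjusted p = 0.003).

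Cygb (ENSMUSG00000020810), cytoglobin, is a haem protein of stellate cells and other fibroblast-like cells. It was among the lower members, with 8, 3 and 6 reads per 20 M in the WT low-fat and 47, 33 and 46 in the WT high-fat replicates. The KO libraries had 1, 4 and 4 in the low-fat and 32, 40 and 19 in the high-fat replicates. No low-fat library reached the level of any high-fat library, and the change over the 6 mice was 5.96-fold (log2 2.58, SE 0.26, limma adjusted p = 0.0027). Colec10 (ENSMUSG00000038591) encodes collectin liver 1, a secreted lectin of the complement system. Its level was 99, 56 and 81 in the WT low-fat and 469, 299 and 266 in the WT high-fat replicates. It was 22, 50 and 66 in the KO low-fat and 324, 321 and 225 in the KO high-fat replicates. The fold change of 5.03 (log2 2.33, SE 0.21, limma adjusted p = 0.0027) came from 6 of 6 mice. Reln (ENSMUSG00000042453) encodes reelin, a large secreted glycoprotein known from neuronal migration and used as a marker of stellate cells in liver. It had 226, 131 and 334 reads per 20 M in the WT low-fat and 1252, 944 and 1065 in the WT high-fat replicates. In KO it had 66, 293 and 311 in the low-fat and 1047, 1384 and 1075 in the high-fat replicates. Reln rose 5.32-fold (log2 2.41, SE 0.24, limma adjusted p = 0.0027), and its highest low-fat library was far below its lowest high-fat library.

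The second group consists of receptors through which stellate cells take growth, contraction and survival signals. Pdgfrb (ENSMUSG00000024620), the beta receptor for platelet-derived growth factor and a mitogen receptor of pericytes, had 20, 5 and 26 reads per 20 M in the WT low-fat and 90, 48 and 93 in the WT high-fat replicates. In KO libraries it had 5, 12 and 13 in the low-fat and 69, 84 and 64 in the high-fat replicates. WT mouse 2 was the lowest of the WT mice in both fractions, and Pdgfrb rose 5.25-fold over the 6 mice (log2 2.39, SE 0.21, limma adjusted p = 0.0027). Ednra (ENSMUSG00000031616), the endothelin A receptor, which drives contraction of smooth muscle and pericytes, had 4, 4 and 9 in the WT low-fat and 70, 27 and 40 in the WT high-fat replicates. It had 3, 6 and 10 in the KO low-fat and 51, 35 and 38 in the KO high-fat replicates. It was the only member whose largest log2 difference within a mouse was in WT mouse 1 (3.47) and not in KO mouse 1 (3.23), and it rose 5.5-fold (log2 2.46, SE 0.29, limma adjusted p = 0.0031). Ngfr (ENSMUSG00000000120), the p75 neurotrophin receptor, had 24, 11 and 19 in the WT low-fat and 67, 41 and 69 in the WT high-fat replicates. The KO values were 3, 15 and 8 in the low-fat and 47, 49 and 46 in the high-fat replicates. Its 3.84-fold change was the smallest of the 10 (log2 1.94, SE 0.22, limma adjusted p = 0.003), and the KO high-fat replicates lay within 3 reads per 20 M of each other.

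The last group consists of genes of contractile mural cells. Rgs5 (ENSMUSG00000026678) encodes a GTPase-activating protein that shortens G protein signalling in pericytes. Its level was 76, 37 and 79 reads per 20 M in the WT low-fat and 413, 296 and 258 in the WT high-fat replicates. The KO replicates had 25, 44 and 66 in the low-fat and 411, 264 and 276 in the high-fat fraction. Mouse 1 had the highest high-fat level in each genotype, and Rgs5 rose 5.71-fold (log2 2.51, SE 0.23, limma adjusted p = 0.0027). Abcc9 (ENSMUSG00000030249) encodes SUR2, the regulatory subunit of an ATP-sensitive potassium channel of mural cells. It had 55, 36 and 64 in the WT low-fat and 388, 199 and 246 in the WT high-fat replicates, and 17, 42 and 52 in the KO low-fat and 352, 288 and 254 in the KO high-fat replicates. The 6.23-fold change of Abcc9 had the lowest unadjusted p of the 10 members (log2 2.64, SE 0.22, limma adjusted p = 0.0027). Des (ENSMUSG00000026208) encodes desmin, a muscle intermediate filament protein also found in rodent stellate cells. It was the least precise member, with 11, 5 and 11 in the WT low-fat, 43, 24 and 22 in the WT high-fat, 0, 3 and 9 in the KO low-fat and 23, 34 and 23 in the KO high-fat replicates. The smallest difference was in WT mouse 3, and Des rose 3.97-fold over the 6 mice (log2 1.99, SE 0.33, limma adjusted p = 0.0089).

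Per kilobase of annotated exon, the members fell into an upper and a lower range in the high-fat libraries. The upper range held Rgs5 (mean level 70.3 ± 16 reads per 20 M per kb, SD, n = 6), Colec10 (69.2 ± 18.1), Reln (47.5 ± 6.74), Lrat (35.8 ± 8.66) and Abcc9 (34.4 ± 8.43). The lower range held Cygb (15.5 ± 4.5), Ngfr (15.4 ± 3.43), Pdgfrb (13.6 ± 3.18), Ednra (7.94 ± 2.76) and Des (7.5 ± 2.27). Only 1 pair of neighbours in this order, Abcc9 and Cygb, did not overlap between libraries. In the low-fat libraries Colec10 came first at 13.6 ± 5.79 per kb and Ednra last at 1.1 ± 0.529, and every pair of neighbours overlapped. Reln, with by far the most reads, came after Rgs5 and Colec10 per kb, over 23738 bases of annotated exon. The strandedness of the libraries is not given in the sources used here. Reads of genes that overlap a member could therefore be counted with it: Rgs5, Pdgfrb and Ngfr overlap no annotated gene, while Reln overlaps 7, the highest of which had a mean of 33.5 reads per 20 M. Abcc9, Lrat, Cygb, Colec10, Ednra and Des overlap 1 each. Prcd, which overlaps Cygb, had a mean of 5.25 over the 12 libraries. Cygb itself had means of 4.33 in low-fat and 36.2 in high-fat libraries.

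Over the 12 libraries the members rose and fell together. The median Pearson correlation of the 45 member pairs was 0.95 on the log2 scale (range 0.87 to 0.99), where the points share 6 mice and the difference between fractions. Within the 6 low-fat libraries the median was 0.83 (0.29 to 0.98), and within the 6 high-fat libraries it was 0.46 (-0.18 to 0.91). Among 13836 genes searched, those most like the mean of the members over the 12 libraries included Col14a1 (r = 0.993), Angptl2 (0.992), Adamts13 (0.991) and Plvap (0.989). Dcn, Ecm1, Bmp10, Col5a1 and Tmem47 were also among the first 10, and all 10 were called higher in the high-fat libraries. The search used these same libraries, and the members' mean itself differed between fractions. The calls therefore follow from how the genes were chosen and are no further support. Col14a1, a fibril-associated collagen, went from 149 to 692 reads per 20 M in WT means and from 93.7 to 661 in KO means. Adamts13, the protease that cleaves von Willebrand factor, had WT means of 11.3 and 71.3 and KO means of 7.33 and 60.3 in the low-fat and high-fat libraries. Plvap, in contrast, is a gene of fenestrated endothelium, and it rose by 2.36 on the log2 scale (SE 0.22, limma adjusted p = 0.00271). The gene most like a single member was Angptl2 for Abcc9 (r = 0.994) and for Rgs5 (0.991), Hgf for Lrat (0.99), Igfbp7 for Colec10 (0.99) and Sod3 for Pdgfrb (0.987). For the others it was Col6a3 for Reln (0.986), Fstl1 for Ngfr (0.985), Hhip for Ednra (0.981), Plvap for Cygb (0.978) and Gucy1b3, a subunit of the nitric oxide receptor, for Des (0.966).

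In WT mice alone, 8 of the 10 markers passed the threshold and all 10 were higher in every mouse. The log2 fold changes were between 1.45 for Des and 2.52 for Ednra, with a median of 2.25 against -0.04 for all genes. The 8 called members each had a limma adjusted p = 0.048, where 0.7% of all genes were called higher. Des (log2 1.45, SE 0.47, limma adjusted p = 0.17) and Ngfr (log2 1.55, SE 0.31, limma adjusted p = 0.064) missed it. The libraries of all 10 members did not overlap between fractions, against 10.4% of all genes. Cygb and Ednra, among the 8 called, and Des met the filter through high-fat libraries alone, so they had to be higher there to be counted. Without the term for each mouse, the replicate block, 0 of 10 members passed in WT (limma adjusted p 0.0742 to 0.344), with 1904 genes of the table at an unadjusted p under 0.05 and 0 called. The 8 calls were also lost with a pseudocount of 0.5, with no filter on low values and with median-of-ratios scaling. They were lost as well when WT mouse 1, 2 or 3 or KO mouse 3 was left out. All groups share 1 estimate of the spread, and the cause of these losses was not tested. In these settings the lowest limma adjusted p of a member was between 0.0521 and 0.394, and 1219 to 4234 genes of the table had an unadjusted p under 0.05. In a fit of the 6 WT libraries alone, 10 of 10 members were called (limma adjusted p 1.36e-05 to 0.015), as they were without KO mouse 1 (0.000478 to 0.0432). Of all genes tested, 1216 of 15722 were called higher in the WT libraries alone and 989 of 16247 without KO mouse 1.

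In KO mice, 10 of 10 markers passed, with fold changes from 5.02 for Ngfr to 7.98 for Abcc9 and limma adjusted p between 0.022 and 0.038, where 1.7% of all genes were called higher. The median log2 fold change was 2.64 against -0.04 for all genes, and 10 of 10 members did not overlap, against 8.54% of all genes. Here too Cygb, Ednra and Des had met the filter through high-fat libraries alone, so they had to be higher there to be counted. Without the replicate block 9 members passed (limma adjusted p 0.0317 to 0.0588), where 141 of all 16563 genes were called higher. In a fit of the 6 KO libraries alone, or without WT mouse 2, no member passed in limma (lowest adjusted p 0.0884 and 0.0595, with 1531 and 1956 genes of the table at an unadjusted p under 0.05).

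KO mouse 1 had the largest difference for 9 of the 10 markers. The median of its log2 differences was 3.54, against 2.23, 2.56 and 1.63 in WT mice 1 to 3 and 2.64 and 1.83 in KO mice 2 and 3. This mouse also had the low-fat library with the lowest levels, 149 summed reads per 20 M of the 10 members against 316 to 679 in the other 5. Its high-fat library, with 2549, lay inside the range of the other high-fat libraries (2110 to 3095). Without KO mouse 1 all 10 members were still called over the remaining 5 mice (limma adjusted p 4.65e-05 to 0.00507), where 1085 of all 16247 genes were called higher.

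The difference between fractions was not shown to depend on the genotype. The log2 fold change was larger in KO than in WT for 9 of 10 members, by a median of 0.55 against 0.02 for all genes, but limma called 0 of 10 for the interaction, and 0 had an unadjusted p under 0.05. The share of all genes called was 0%. The largest estimates were Des (1.08, 95% interval -0.45 to 2.61), Ngfr (0.77, -0.23 to 1.78) and Abcc9 (0.71, -0.27 to 1.7), each with a limma adjusted p = 1. Ednra was the exception in direction (-0.13, -1.46 to 1.2). Intervals of this width leave room for differences in either direction. Without KO mouse 1 the estimates of Lrat, Cygb and Reln changed sign, to -0.03, -0.156 and -0.208.

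**Figure D2:**
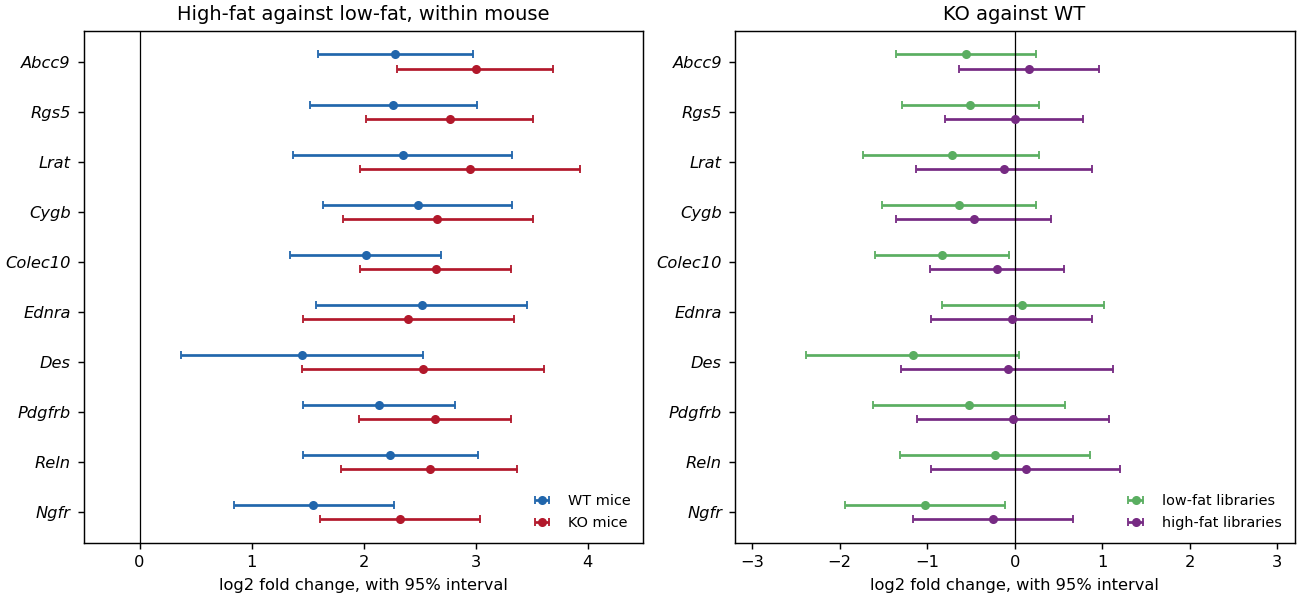
Log2 fold changes of the 10 markers with 95% intervals from limma, for high-fat against low-fat within WT and KO mice on the left and for KO against WT within each fraction on the right. All intervals on the left lie above 0, while on the right only those of Colec10 and Ngfr in low-fat libraries exclude 0.

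Between genotypes, no marker passed the threshold in either fraction. In low-fat libraries 9 of 10 had a lower estimate in KO, with a median log2 difference of -0.59 against 0 for all genes. limma called 0 of the 10, where 0.00604% of all genes, which is Ptprk alone, were called lower and 272 genes had an unadjusted p under 0.05. Colec10 (-0.83, 95% interval -1.6 to -0.06, unadjusted p = 0.036) and Ngfr (-1.02, -1.94 to -0.11, unadjusted p = 0.032) were the 2 members under that unadjusted level in limma, and both had an adjusted p of 1. Des had the largest estimate (-1.16, -2.38 to 0.05), and Ednra the only positive one (0.09, -0.83 to 1.02). No member's WT and KO values were separate, while 2.97% of all genes were separate and lower in KO and 2% separate and higher. Two-sided exact permutation tests of the levels gave p between 0.2 and 0.9, where 3 against 3 libraries allow no p under 0.1. The lowest KO value was that of replicate 1 for all 10 members, and without it the estimate for Reln turned from -0.22 to 0.466.

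In high-fat libraries the genotypes were close for most members, with a median log2 difference of -0.06. None of the 10 was called by limma, against 0.00604% of all genes called lower. No member had an unadjusted p under 0.05 in limma, while 327 genes of the table did. Cygb had the largest estimate (-0.46, 95% interval -1.35 to 0.42), followed by Ngfr (-0.25, -1.16 to 0.67) and Colec10 (-0.2, -0.97 to 0.57). Rgs5 stood at 322.3 ± 80.8 reads per 20 M (WT) and 317 ± 81.6 (KO; SD over 3 mice), a log2 difference of 0 (-0.79 to 0.78). The intervals still span more than 1 log2 unit in total for every member, so a moderate difference was not detectable with 3 mice a group. Again no member's groups were separate, against 2.49% of all genes separate and lower in KO and 2.02% higher, and exact permutation p-values lay between 0.2 and 1.

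Other genes of stellate cells, from a list without the 10 members, showed differences of a like size. Of 16 genes, 13 were called higher in the high-fat libraries over the 6 mice and 0 lower, with a median log2 fold change of 2.48. Of the 13, Hhip, Hand2, Lhx2, Bmp10 and Tcf21 met the filter through their high-fat libraries alone, so they had to be higher there to be counted. Of the 11 genes that also met it in low-fat libraries, 8 were called. Dcn, the proteoglycan decorin, went from 101 ± 52 to 681 ± 253 reads per 20 M (SD, n = 6 each), or 2.81 on the log2 scale (SE 0.31, limma adjusted p = 0.0028). Colec11, which forms complexes with the Colec10 product, rose by 2.68, and Bmp10, a ligand of endothelial activin receptor-like kinase, by 2.62. The 3 not called were Steap4 (-0.04), Cxcl12 (-0.14) and Angptl6 (0.36). Steap4 and Cxcl12 had mean levels of 2230 and 5230 reads per 20 M in low-fat libraries, far above any member.

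Genes assigned to stellate cells at the portal and the central side of the lobule both included risers. All 3 portal-side genes were called higher: Igfbp3 (log2 2.41), Itgb3 (1.78) and Il34 (1.56). Of 4 central-side genes, Rspo3, which encodes the Wnt-enhancing ligand R-spondin 3, rose by 2.46 and Adamtsl2 by 2.16, while Spon2 (-0.03) and Podn (0.07) did not pass. Rspo3, Adamtsl2 and Il34 met the filter through their high-fat libraries alone, so they had to be higher there to be counted. Among the genes that also met it in low-fat libraries, 2 of 2 portal-side and 0 of 2 central-side genes were called higher. Of 12 genes of stellate activation, 8 passed the filter and 7 rose, but Col1a1, Loxl2, Thbs2 and Mmp2 among them passed it through high-fat libraries alone. Of the 4 that also met it in low-fat libraries, 3 rose. Col3a1 rose by 2.90, Postn by 2.69 and Col1a1 by 2.65, the last from 9.83 ± 8.3 to 61.7 ± 18.9 reads per 20 M (SD, n = 6 each). Acta2, the smooth muscle actin of activated stellate cells, was nearly absent, at 0 to 2 in low-fat and 1 to 7 in high-fat libraries, and Timp1 was at 0 to 3 in all 12. Tagln, a further smooth muscle gene, had a log2 fold change of 0.00 (SE 0.15).

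Partners of the single members behaved unevenly. Of the partners called higher, Pdgfb, Kcnj8 and Rgs4 met the filter through high-fat libraries alone. In the retinoid list, 2 of 11 genes tested rose and 1 fell, where 3.8% of all genes were called lower. Cyp26b1, which breaks down retinoic acid, rose by 1.57 (SE 0.19, limma adjusted p = 0.00324) and Aldh1a1, a retinal dehydrogenase of hepatocytes and other cells, by 0.28 (limma adjusted p = 0.049), while Stra6l, a retinol-binding protein receptor, fell by 0.27. Crabp1, Crabp2 and Stra6 were listed at 0 in all 12 libraries. For Ednra, the other endothelin receptor Ednrb rose by 1.08 (SE 0.20, limma adjusted p = 0.0124), 1 of 3 genes tested. The ligand gene Edn1 had 0 to 7 reads per 20 M, Edn2 and Edn3 were listed at 0, and the converting enzymes Ece1 (-0.23) and Ece2 (-0.09) did not pass.

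Of 5 genes of the platelet-derived growth factor system tested, 3 rose. Pdgfra, the alpha receptor, went from 7.83 ± 3.43 to 43 ± 6.81 reads per 20 M (SD, n = 6 each), or 2.21 on the log2 scale (SE 0.25, limma adjusted p = 0.00281). The ligands Pdgfb and Pdgfc rose by 1.32 and 0.66, Pdgfd had 0.56 and Pdgfa -0.28, the last with a limma adjusted p = 0.0518. For Ngfr, 1 of 5 neurotrophin genes tested passed: Sort1, a co-receptor of p75, rose by 0.45. Kcnj8, the pore subunit that pairs with SUR2, rose by 2.24 (SE 0.36, limma adjusted p = 0.00707), from 5.17 ± 4.07 to 28.8 ± 10.1 reads per 20 M (SD, n = 6 each). Kcnj8 and Pdgfb met the filter through high-fat libraries alone, so they had to be higher there to be counted. The other pore gene Kcnj11 was listed at 0, and Abcc8 at 0 to 2.

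For Reln, the only receptor tested was Vldlr (0.62, limma adjusted p = 0.084), and Lrp8 and Dab1 missed the filter. Beside Colec10, 1 of 6 lectin pathway genes rose, Fcna (2.61), while Mbl1, Mbl2, Masp1, Masp2 and Colec12 lay between -0.12 and 0.09. Beside Des, Nes (1.71) and Vim (1.52) rose among 5 filament genes tested. Gfap, used as a stellate marker in rodents, had 0 to 7 reads per 20 M. Beside Rgs5, Rgs4 rose by 1.65 and Rgs16 fell by 0.38 among 6 RGS genes tested. Rgs4 met the filter through high-fat libraries alone, and of the 4 RGS genes that also met it in low-fat libraries 0 were called higher. Beside Cygb, 0 of 3 globin genes tested passed, and their median was -1.36.

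**Figure D3:**
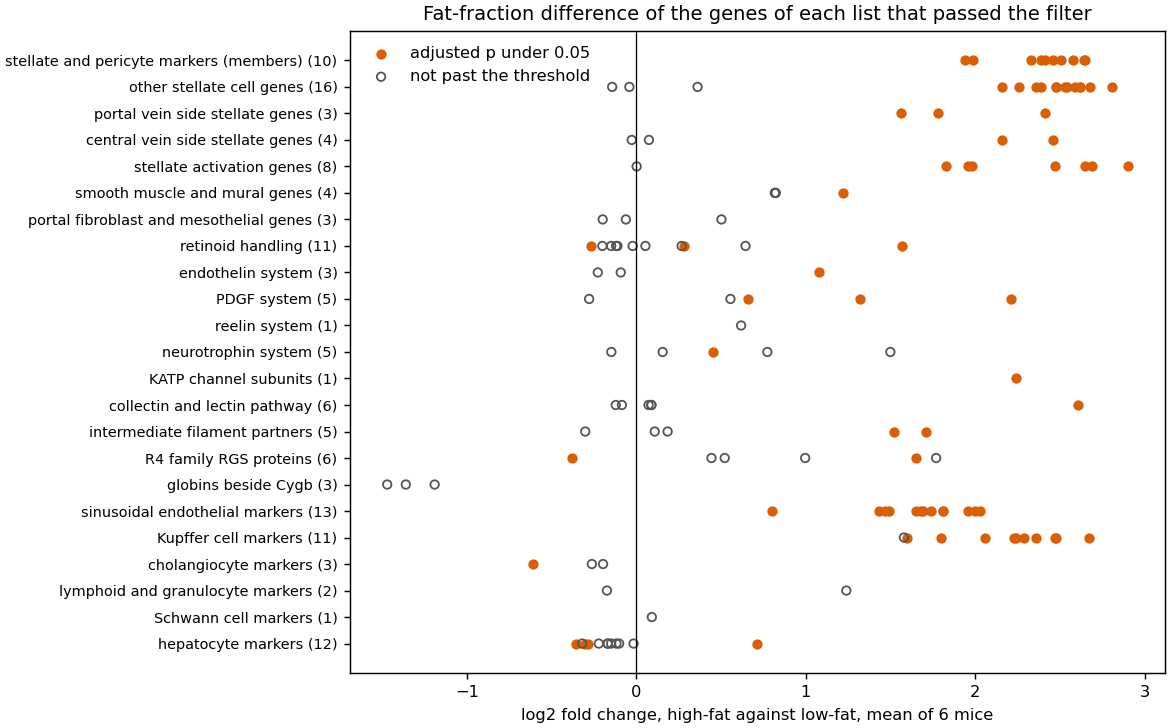
Difference between fractions over the 6 mice (log2, high-fat against low-fat) of each gene that passed the filter, by gene list, with the number of genes in brackets; filled points passed the limma adjusted p threshold and open circles did not. The members, other stellate, endothelial and Kupffer genes lie mostly to the right of 1, and hepatocyte genes other than Cyp2e1 and cholangiocyte genes near or below 0.

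Markers of other mural and fibroblast-like cells of the liver ranged from 0 to levels above several members. Of 9 smooth muscle and mural genes, 4 passed the filter and 1, Mcam, rose, by 1.22, from 32.2 ± 10.5 to 87 ± 46.5 reads per 20 M (SD, n = 6 each). Pln had 45 ± 19.5 and 84.3 ± 33 (0.82, limma adjusted p = 0.0566), and Actg2 and Tbx18 were listed at 0 in all 12 libraries. Of 9 genes of portal fibroblasts and mesothelium, 3 passed the filter and 0 were called. Entpd2 had 93.2 ± 19.4 in low-fat and 85.7 ± 19.4 in high-fat libraries, while Wt1 had 0 to 2 reads per 20 M. The Schwann cell list, included because Ngfr also marks glia, had 1 gene tested and 0 called, with Sox10 listed at 0.

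Markers of endothelial cells and macrophages moved with the members. Of 13 sinusoidal endothelial markers 13 rose, with a median log2 fold change of 1.69, among them Lyve1 (2.03), Stab1 (2.0) and Kdr (1.96). Of 11 Kupffer cell markers 10 rose, with a median of 2.24, of which Marco met the filter through high-fat libraries alone, and Cd68 (limma adjusted p = 0.0636) did not pass. Their summed levels went from 1836 to 4455 in low-fat to 7267 to 22428 reads per 20 M in high-fat libraries for the endothelial list, and from 492 to 1418 to 2224 to 12320 for the Kupffer list, with no gene of either list at 0 throughout. Of 12 hepatocyte markers, 1 rose (Cyp2e1, 0.71) and 3 fell, and of 3 cholangiocyte genes tested 1 fell (Sox9, -0.61). Of 2 lymphoid and granulocyte genes tested 0 were called. The part of these other cell types in the members' difference was not tested.

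The members' ratio between fractions differed from those of the other lists from mouse to mouse. Summed over the 10 genes, the high-fat level was 5.6, 6.68 and 3.32 times the low-fat level in WT mice 1 to 3 and 17.1, 5.44 and 3.75 times in KO mice 1 to 3. The endothelial sum gave 5.15, 2.92 and 2.04 in WT and 7.93, 2.38 and 2.09 in KO, below the members in each of the 6 mice. The Kupffer sum gave 11.3, 1.78 and 3.48 in WT and 21.4, 3.12 and 3.12 in KO. It was above the members' ratio in WT mice 1 and 3 and KO mouse 1 and below it in the other 3. The hepatocyte sum stayed between 0.904 and 1.08. Per read of Kupffer markers, the members had 0.251 and 0.242 reads in the high-fat libraries of WT mouse 1 and KO mouse 1, and 0.835 to 1.083 in the other 4.

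**Figure D4:**
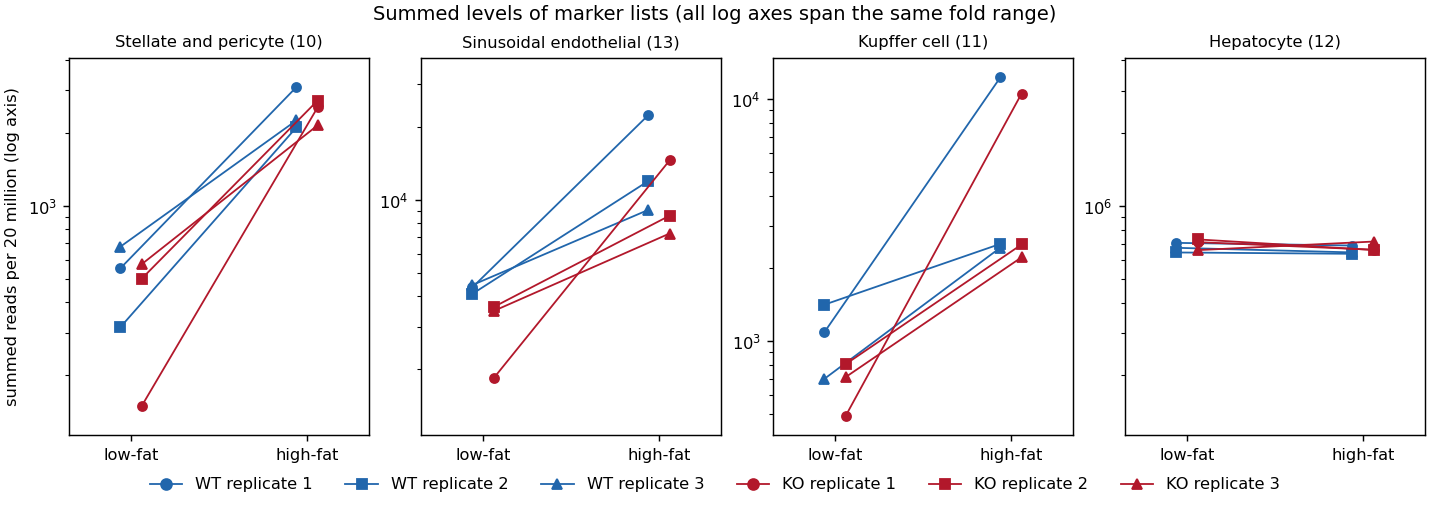
Summed reads per 20 M of the members and of 3 other marker lists in the low-fat and high-fat library of each mouse, on log axes that span the same fold range, WT in blue and KO in red. The members, endothelial and Kupffer sums rise in every mouse, the hepatocyte sum is flat, and the high Kupffer points are mouse 1 of each genotype.

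In the comparison of genotypes the endothelial and Kupffer markers went with the members in low-fat libraries. In low-fat libraries 0 of 13 endothelial and 0 of 11 Kupffer markers were higher in KO, with median log2 differences of -0.66 and -0.79, beside -0.59 for the members and -0.50 for the other stellate genes. None of these genes was called. The low-fat library of KO mouse 1 had the lowest endothelial and Kupffer sums as well, at 1836 and 492 reads per 20 M. In high-fat libraries the medians were -0.10 for Kupffer and -0.01 for the other stellate genes, beside -0.06 for the members. The endothelial median there was -0.42, with 0 of 13 markers higher in KO.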

How the data were processed

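RNA sequencing values were available for 12 libraries of 6 mice. The deposited values are treated as a score: the authors scaled each library's gene read counts to 20 M and rounded up, as read from the file name and from column sums of 20.006 to 20.014 M. The build mm9 is named per the submitters' processing notes; of the gene identifiers, 99.56% are in GENCODE M21 (GRCm38), which gave exon lengths. Aligner, counter and strandedness are not given in the sources used here. Depth was estimated from the step pattern of the scaled values.

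Values were rescaled by the trimmed mean of M values (factors 0.928 to 1.085) and transformed as log2(value + 2). Genes with at least 10 reads per 20 M in at least 3 libraries were tested, 16563 in all. limma 3.58.1 in R 4.3.3, with an intensity trend and over all 12 libraries, gave two-sided p-values, adjusted by the Benjamini-Hochberg method over these genes, with a threshold of 0.05. The labels give both libraries of a mouse 1 mouse name, so comparisons of fractions carry a term for each mouse, the replicate block. In WT the deviations of the libraries of a mouse correlated at 0.471 to 0.581, in KO at -0.0116 to 0.458. KO against WT compared different mice, without a block. Libraries of the same replicate number in WT and KO nevertheless correlated, at 0.252 to 0.397 in low-fat and at -0.173 to 0.49 in high-fat libraries. The fit was tested on simulated data.

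The members and the gene lists were chosen with earlier results of these data known, so no pattern here is independent support. All members are named, and up to 3 genes of every other list by the size of the difference, partner lists whole or in part, and a few genes that the rule takes are not reported here. A few further genes of the stellate, zonal and activation lists and of the other cell types (Steap4, Cxcl12, Angptl6, Il34, Adamtsl2, Acta2, Timp1, Tagln, Hhip, Hand2, Lhx2, Tcf21, Loxl2, Thbs2, Mmp2, Marco, Rgs4, Rgs16, Actg2, Tbx18, Wt1, Sox10 and Cd68) were named after their values were seen. Alternatives covered pseudocount, filter, scaling, block, the libraries fitted and leaving out each mouse or library.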

Additional observations from a re-analysis of the deposited data

How the results depend on the processing

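For high-fat against low-fat over all 6 mice, every member tested was called in each of 14 alternatives, with adjusted p-values up to 0.0484, although a filter at 50 reads per 20 M left 6 of the 10 members to test. The 8 calls in WT fell to 0 with a pseudocount of 0.5, with no filter, with median-of-ratios scaling and with no replicate block, and to 5 of 6 tested with the filter at 50, and became 10 when only the WT libraries were fitted, while leaving out mice gave 0 to 10. The 10 calls in KO became 6 of 6 tested with the filter at 50 and 0 when only the KO libraries were fitted, and leaving out mice gave 0 to 9. The cause of these changes was not tested. Over the whole table, 1731 genes were called over the 6 mice (954 with no replicate block, 620 to 2959 without 1 mouse), 169 in WT (0 under the 4 settings named first, 383 with mouse as a random effect, 1829 in the WT libraries alone, 0 to 1628 without 1 mouse) and 353 in KO (148 with no block, 115 with no filter, 233 with the filter at 50, 528 with the random effect, 0 in the KO libraries alone, 0 to 310 without 1 mouse). For KO against WT, pairing by replicate number as a block called 0 members in each fraction, as without it, and changed no call. The following estimates, none of them called, changed sign. The interaction of Cygb was -0.097 with a pseudocount of 10, and Rgs5 in high-fat libraries was 0.012 when those libraries alone were fitted. Leaving out 1 mouse gave interactions of -0.156 to 0.598 for Cygb, -0.528 to 0.356 for Ednra, -0.03 to 1.153 for Lrat and -0.208 to 0.746 for Reln. Leaving out 1 library gave KO against WT differences in low-fat libraries of -0.216 to 0.413 for Ednra and -0.629 to 0.466 for Reln. In high-fat libraries they were -0.138 to 0.177 for Rgs5, -0.301 to 0.061 for Lrat, -0.342 to 0.03 for Colec10, -0.343 to 0.303 for Ednra, -0.269 to 0.186 for Des, -0.322 to 0.166 for Pdgfrb, -0.046 to 0.423 for Abcc9 and -0.012 to 0.263 for Reln. Levels under about 10 reads per 20 M, as those of Cygb, Ednra and Des in low-fat libraries, limit the precision of their fold changes.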
